A study of Mus musculus with 12 samples.

Results

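Bone morphogenetic proteins (BMPs), growth and differentiation factors (GDFs) and the secreted antagonists that bind them are described here in stromal cells of the mouse joint. The members were chosen by name and are 9 of the 27998 genes in the deposited files: the ligands *Bmp2*, *Bmp4*, *Bmp5*, *Bmp6*, *Bmp7*, *Gdf5* and *Gdf10*, and the antagonists *Grem1* and *Chrdl1*. The measurements were single-cell RNA sequencing (scRNA-seq) of 12 libraries of sorted CD45- cells from the hind limb joints of wild-type C57BL/6 mice, which were male and 8 to 10 weeks old. In serum transfer-induced arthritis (STIA), serum of arthritic K/BxN mice is injected and causes a joint inflammation that subsides by itself. By the labels, 3 libraries are of untreated joints (rest, day 0), 3 were taken on days 7 to 9 after the serum (peak), 3 on day 15 (resolving) and 3 on day 22 (resolved). Joints of 3 animals were pooled for every library. Wild-type genotype and strain were shared by all groups, and a library is a pool, so animals within it could not be told apart.

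BMPs and GDFs are secreted dimers of the transforming growth factor beta superfamily. Many of them, though not all, bring together type I and type II receptor kinases that phosphorylate Smad1, Smad5 and Smad9 in the target cell. These Smads enter the nucleus with Smad4 and switch on genes such as the *Id* genes. Antagonists such as Gremlin 1 and chordin-like 1 hold the ligand outside the cell. In the skeleton the family is known for bone formation, cartilage growth and the shaping of joints.

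Of 21042 deposited cells, 20060 passed the limits on genes and on unique molecular identifiers (UMIs, which label each RNA molecule caught), with 1227 to 2747 cells and 7468914 to 16566202 UMIs in each library. Levels are given in CPM (a gene's UMIs divided by all UMIs of the same cells summed within a library, times 1e6), as mean ± SD over the libraries with at least 10 such cells. The kit reads the 3′ ends of transcripts, so levels were compared between cells and not between genes. The cells fell into 27 clusters, named from their markers after the members had been left out of the clustering. Fibroblasts made up 12713 cells in 10 clusters, beside 1770 vascular endothelial, 1353 osteoblast, 764 tenocyte, 663 proliferating, 655 perivascular, 312 chondrocyte, 260 muscle, 186 lymphatic endothelial, 82 Schwann, 71 immune and 61 erythroid cells. A further 1170 cells stayed unnamed, of which 945 formed a cluster led by *Cytl1*, *Clu* and *Tnfrsf11b*. The marker lists separated some classes better than others. The summed level of the 7 osteoblast markers was 14472 to 35957 CPM in osteoblasts and 75.1 to 499 CPM in fibroblasts, that of the 7 chondrocyte markers was 43078 to 65233 CPM in chondrocytes and 67.0 to 348 CPM in fibroblasts, and that of the 6 tenocyte markers was 15488 to 26759 CPM in tenocytes and 673 to 3927 CPM in fibroblasts. The 7 fibroblast markers did not set fibroblasts (17398 to 70535 CPM) apart from tenocytes (45440 to 73078 CPM) or osteoblasts (21735 to 32024 CPM), and all 7 osteoblast markers were also higher in chondrocytes (1024 to 6560 CPM in sum) than in fibroblasts.

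The libraries did not group by their stage labels. The cell barcodes carry suffixes from 1 to 12, and across 11548 genes the library nearest to each in its fibroblast sums always came out of its own run of 3 consecutive suffixes (12 of 12). It never carried the same stage label (0 of 12). Each of these 4 runs holds 3 different labels. Taken in suffix order, the labels repeat as rest, peak, resolving and resolved. The runs match the stage labels in number and size, but by the labels they are not groups of the study. Their origin is not given in the sources used here, and whether the labels match the libraries was not tested. No cell barcode was shared between libraries. The stage labels are therefore written below as labels, and the levels of members in fibroblasts are also compared across runs. The comparisons of cell types, of lining-like cells and of *Hk2* status are not given by run.

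The members differed widely in how many molecules were captured. *Bmp2* gave 11344 UMIs in 4653 of the 20060 cells, *Gdf10* 6702 UMIs, *Bmp4* 4837, *Chrdl1* 4610 and *Bmp5* 2390. Counts were lower for *Grem1* with 614 UMIs, *Gdf5* with 519 and *Bmp7* with 299. *Bmp6*, which in other tissues controls iron uptake through hepcidin, gave 11 UMIs in 11 cells and was too low for any test. Fibroblasts held between 51.6% and 72.1% of the UMIs of *Bmp2*, *Bmp4*, *Bmp5*, *Gdf5*, *Gdf10* and *Chrdl1*, and 25.8% of those of *Bmp7* and 25.9% of those of *Grem1*.

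The members lie on separate loci of GRCm38 in GENCODE M21. *Bmp2* (133552159 to 133562885, plus strand), *Bmp7* (172868012 to 172940321, minus), *Gdf5* (155941023 to 155945367, minus) and *Grem1* (113746164 to 113758646, minus) are on chromosome 2. *Bmp4* (46383520 to 46390669, minus) and *Gdf10* (33923587 to 33937983, plus) are on chromosome 14, *Bmp5* (75775364 to 75900310, plus) on chromosome 9, *Bmp6* (38345107 to 38500302, plus) on chromosome 13 and *Chrdl1* (143285674 to 143394262, minus) on chromosome X. *Bmp5* overlaps the unnamed model *Gm47723* on its own strand, and *Bmp4*, *Bmp5*, *Bmp6* and *Gdf5* overlap models on the opposite strand. Whether the counting used strand is not given in the sources used here, so reads of these overlaps cannot be told apart.

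Of the 9 members 5 had a promoter in the RefSeq table used. The 4 shown here are the 250 bases before the start of each gene on GRCm38.p6, read 5′ to 3′ on its own strand. *Bmp4* (chromosome 14, 46390670 to 46390919, minus), *Bmp5* (chromosome 9, 75775115 to 75775364, plus) and *Gdf10* (chromosome 14, 33923337 to 33923586, plus) are given because their levels moved the same way between lining-like and sublining-like cells and between groups of libraries. *Grem1* (chromosome 2, 113758649 to 113758898, minus) is given because this antagonist was far higher in osteoblasts than in fibroblasts. Capitals mark the GC box (GGGCGG) and the GC-rich Smad element (GGCGCC), both searched on either strand with overlaps counted.
Bmp4: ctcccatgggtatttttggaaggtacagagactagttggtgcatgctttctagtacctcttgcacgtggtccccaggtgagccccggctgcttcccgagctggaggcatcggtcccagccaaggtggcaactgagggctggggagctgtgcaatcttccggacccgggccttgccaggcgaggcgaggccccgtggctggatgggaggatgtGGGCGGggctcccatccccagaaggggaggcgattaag
Bmp5: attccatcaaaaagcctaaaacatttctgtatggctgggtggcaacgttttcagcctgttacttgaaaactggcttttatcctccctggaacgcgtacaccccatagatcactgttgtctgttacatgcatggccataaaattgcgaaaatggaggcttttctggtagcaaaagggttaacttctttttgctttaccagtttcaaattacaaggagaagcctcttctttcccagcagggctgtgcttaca
Gdf10: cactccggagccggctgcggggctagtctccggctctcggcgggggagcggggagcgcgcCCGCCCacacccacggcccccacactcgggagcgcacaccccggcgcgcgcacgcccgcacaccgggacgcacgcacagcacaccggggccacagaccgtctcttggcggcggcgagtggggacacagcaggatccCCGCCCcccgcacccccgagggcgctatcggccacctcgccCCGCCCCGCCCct
Grem1: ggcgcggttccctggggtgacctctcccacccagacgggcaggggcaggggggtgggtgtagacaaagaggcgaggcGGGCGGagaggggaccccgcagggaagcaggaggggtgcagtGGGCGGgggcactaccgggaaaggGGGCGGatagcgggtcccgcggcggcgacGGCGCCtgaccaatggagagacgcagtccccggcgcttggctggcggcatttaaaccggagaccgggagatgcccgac

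The windows differed in composition, with a GC content of 63.2% for *Bmp4*, 42.8% for *Bmp5*, 78.8% for *Gdf10* and 72% for *Grem1*. The GC box was found 1 time in *Bmp4*, 4 times in *Gdf10*, 3 times in *Grem1* and 0 times in *Bmp5*, and 32.7% of the 32851 promoters in the table held it. The GC-rich Smad element was found 1 time in *Grem1* and 0 times in the other windows, and in 9.59% of all promoters. The TATA box letters TATAAA were in 0 of the 4 windows and in 12.4% of all promoters. A match describes these letters and not a bound site.

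**Figure D1:**
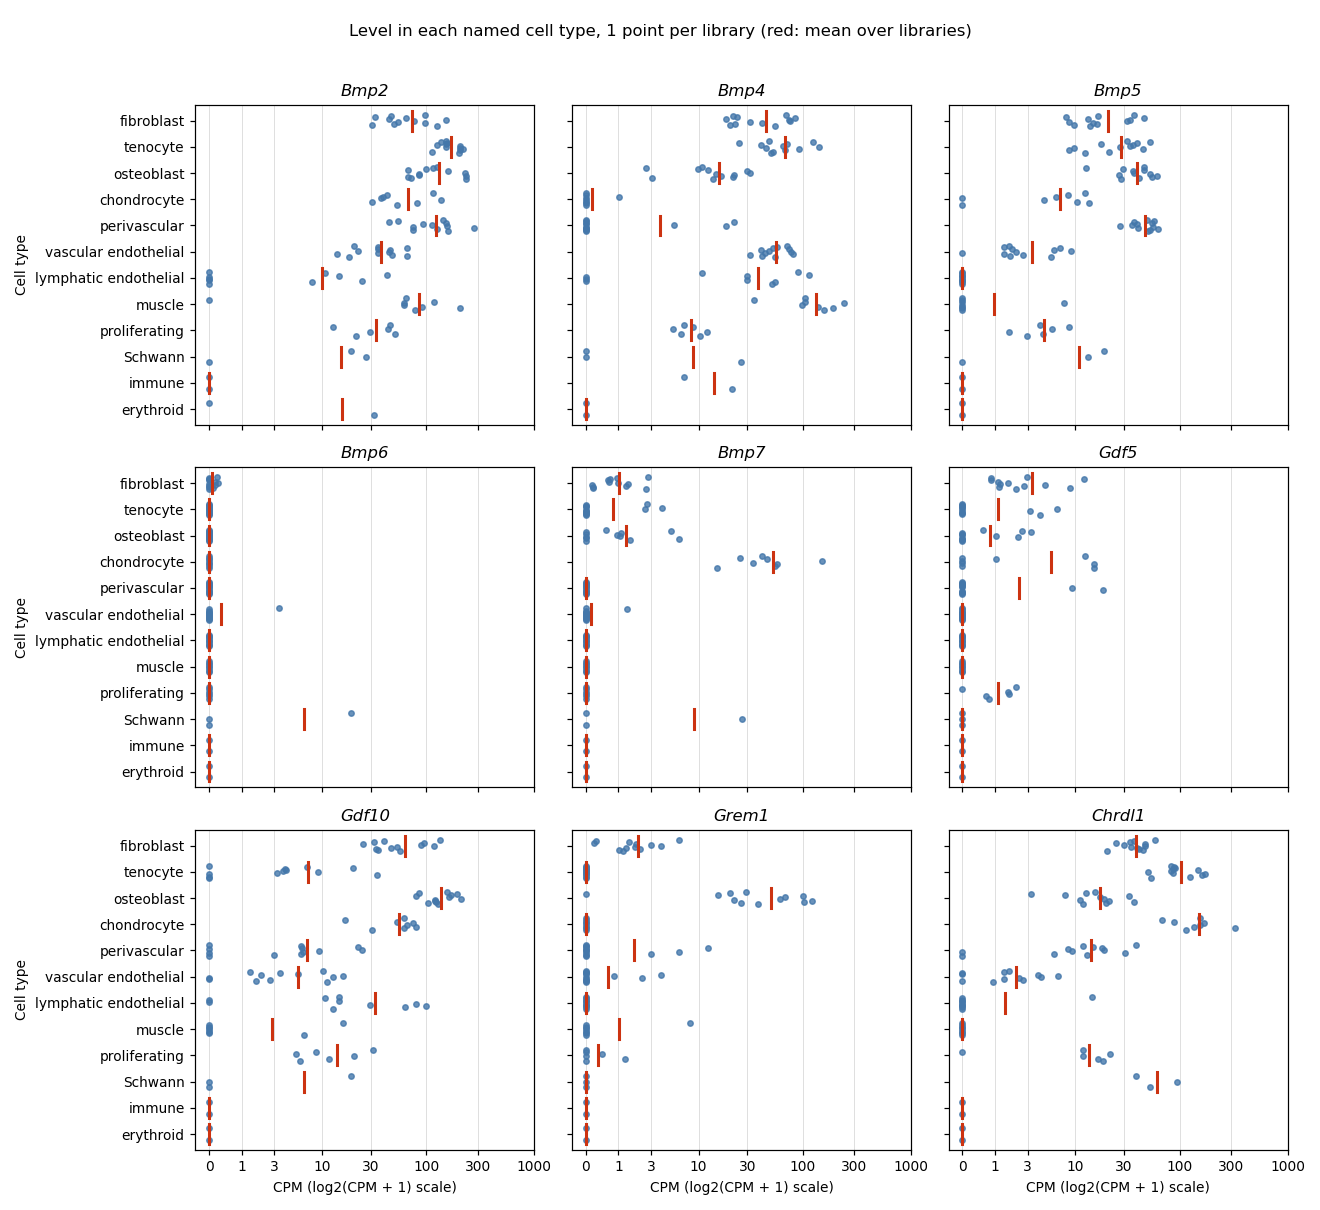
Level of each member (x axis, CPM on a log2(CPM + 1) scale) in the 12 named cell types (y axis). Each point is a library with at least 10 cells of the type and the red bar is the mean over libraries. *Grem1* stood high in osteoblasts (50.5 ± 39.6 CPM), *Bmp7* in chondrocytes (52.9 ± 41.4 CPM) and *Bmp2* in tenocytes (169 ± 36.3 CPM).

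Cell types were compared with fibroblasts on UMIs summed per library, with the library as a block, in edgeR. Proliferating cells reached 10 cells only in 6 libraries, all with suffixes from 4 to 9, so their comparisons rest on these libraries. A gene was called when its Benjamini-Hochberg adjusted p was under 0.05 and its log2 fold change passed 0.5 either way. Of the members, 7 passed the filter on low counts in this model, and *Bmp6* and *Gdf5* did not. Over 11 types that made 77 tests, of which 48 were called. The filter took the sums of all types together. *Bmp7* (77 UMIs in fibroblasts) and *Grem1* (159 UMIs) passed it, although *Gdf5* had more UMIs in fibroblasts (309). *Bmp7* had 171 UMIs in chondrocytes and *Grem1* 390 in osteoblasts. For these members the filter was therefore not independent of the type where they were high, and their tests there share this limit.

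Across the whole table the share of genes called was 28.3% in osteoblasts, 19.7% in tenocytes, 40% in perivascular cells, 47.6% in chondrocytes, 53.3% in vascular endothelial cells, 38.8% in lymphatic endothelial cells, 39% in muscle cells, 26.7% in proliferating cells, 16.5% in Schwann cells, 23.1% in immune cells and 13.6% in erythroid cells. In the 3 smallest classes 5.11% of genes were called higher in Schwann cells, 9.64% in immune cells and 6.19% in erythroid cells, and 7.44% were called lower in erythroid cells. Against these, 6 of 7 tested members were called in osteoblasts, 5 of 7 in tenocytes, in perivascular cells and in chondrocytes, 6 of 7 in vascular endothelial cells, 4 of 7 in lymphatic endothelial cells and in muscle cells, 7 of 7 in proliferating cells, 3 of 7 in Schwann cells, 2 of 7 in immune cells and 1 of 7 in erythroid cells. With the library as a block, the adjusted p-values measure how the difference from fibroblasts varies between libraries of pooled animals, and not how the levels vary. Tests on summed cells do not tell fewer cells with a transcript from less of it per cell, and shares of cells were not tested. For *Grem1* the share of cells with a UMI was 11.1% in osteoblasts and 0.621% in fibroblasts. It was 6.96% and 0.304% in cells of at least 2000 UMIs cut at random to 2000.

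*Bmp2*, a strong inducer of bone formation, was the member with the most UMIs, and like *Bmp4* it had at least 1 UMI in each of the 12 named types. Fibroblasts held 30.6 CPM in the lowest library, 59.3 CPM in the median and 152 CPM in the highest. Tenocytes, the cells of tendon, held 112.5, 155 and 218.5 CPM. They lay above the fibroblasts of their own library 12 times in 12, by 1.41 ± 0.193 on the log2 scale (fitted value ± SE; adjusted p = 2.93e-09, edgeR). Osteoblasts were higher in 12 of 12 libraries as well, at 131 ± 66.3 CPM against 72.8 ± 38.4 CPM (log2 fold change 0.78, adjusted p = 0.000221). Perivascular cells, which wrap small vessels, reached 123 ± 62.99 CPM and were higher in 11 of 12 libraries (log2 fold change 0.56, adjusted p = 0.0246), a call close to the limit that 9 alternative settings did not keep. *Bmp2* was lower than in fibroblasts in vascular endothelial cells (37.8 ± 17.3 CPM, log2 fold change -1.19), lymphatic endothelial cells (10.1 ± 14.3 CPM, log2 fold change -3.26) and proliferating cells (34.0 ± 15.0 CPM, log2 fold change -0.70). The libraries with enough proliferating cells were those where fibroblasts, too, held less *Bmp2* than in the other libraries. *Bmp2* was called lower in Schwann cells and in immune cells too, where it rests on 3 UMIs in 82 cells and 1 UMI in 71 cells. Chondrocytes (67.1 ± 39.8 CPM) and muscle cells (85.2 ± 58.6 CPM) were not called.

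*Bmp4*, a ligand close to *Bmp2* in sequence, had a different distribution. Muscle cells (a cluster led by *Myod1*, *Asb5* and *Pax7*) held 34.7 CPM in the lowest of 8 libraries, 121 CPM in the median and 240 CPM in the highest. They were above the fibroblasts in 8 of 8 libraries (log2 fold change 1.23 ± 0.281, adjusted p = 0.000183). Tenocytes were at 68.6 ± 34.5 CPM against 44.9 ± 25.3 CPM in fibroblasts (log2 fold change 0.74, adjusted p = 0.0035, higher in 8 of 12 libraries). Vascular endothelial cells, at 56.01 ± 15.99 CPM, were not called (log2 fold change 0.15 ± 0.179). Osteoblasts held 15.8 ± 9.24 CPM and were lower (log2 fold change -1.67, adjusted p = 1.17e-09). In chondrocytes 1 UMI was found among 4021535, so that the pooled level was 166-fold lower than in fibroblasts, with an exact 95% interval of 29.7 to 6546 that covers counting error only. Perivascular cells held 7 UMIs in 655 cells (3.88 ± 7.99 CPM, log2 fold change -4.16, adjusted p = 1.58e-12). *Bmp2* and *Bmp4* thus parted in perivascular cells, where the first was higher and the second lower than in fibroblasts of the same libraries.

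*Bmp5*, whose loss gives the short ear mouse, was present in perivascular cells at 27.8 CPM in the lowest library, 49.6 CPM in the median and 63.2 CPM in the highest. This was above fibroblasts (21.02 ± 12.97 CPM) in 11 of 12 libraries, with a log2 fold change of 1.19 ± 0.22 (adjusted p = 3.39e-06). Osteoblasts held 39.7 ± 14.0 CPM (log2 fold change 0.91, adjusted p = 1.83e-05, higher in 10 of 12 libraries). Tenocytes reached 28.4 ± 14.5 CPM and were not called (adjusted p = 0.0518). *Bmp5* was lower in vascular endothelial cells (3.38 ± 2.79 CPM, log2 fold change -2.61) and in proliferating cells (4.65 ± 2.41 CPM, log2 fold change -1.98). It was also lower in chondrocytes (7.01 ± 5.23 CPM, log2 fold change -1.32). Lymphatic endothelial cells held 0 of 794645 UMIs, which puts the pooled level at least 5.16-fold lower than in fibroblasts (taking 3 counts over the class as the limit that a count of 0 allows). This bound, and those given for other members with a count of 0, cover counting error only.

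*Bmp7*, a ligand used to promote bone and cartilage growth, had 171 of its 299 UMIs in chondrocytes. The 8 libraries with at least 10 chondrocytes held 41.6 and 25.6 CPM (libraries labelled rest), 46.2 and 149 CPM (peak), 34.0 and 57.0 CPM (resolving) and 54.6 and 15.3 CPM (resolved). Fibroblasts of the same libraries held 0.864 ± 0.898 CPM, and the log2 fold change was 5.79 ± 0.36 (adjusted p = 1.48e-21, higher in 8 of 8). The filter was not independent of the chondrocytes for *Bmp7*, and this p-value shares that limit. In osteoblasts (1.37 ± 2.08 CPM) and tenocytes (0.779 ± 1.45 CPM) *Bmp7* was not called. *Gdf5*, which marks the embryonic zone where a joint will form, was too low for the filter in this model. It was 5.54 ± 7.42 CPM in chondrocytes, 3.38 ± 3.62 CPM in fibroblasts and 0 of 7458401 UMIs in vascular endothelial cells, at least 9.25-fold lower than in fibroblasts.

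*Gdf10*, a divergent relative of *Bmp3*, was highest in osteoblasts among the named types. Osteoblasts held 79.9 CPM in the lowest library, 127 CPM in the median and 211 CPM in the highest, above the fibroblasts (63.2 ± 36.3 CPM) in 12 of 12 libraries (log2 fold change 1.13 ± 0.163, adjusted p = 6.89e-09). It was lower than in fibroblasts in tenocytes (7.14 ± 10.2 CPM, log2 fold change -3.52), perivascular cells (7.01 ± 8.42 CPM, log2 fold change -3.15) and vascular endothelial cells (5.63 ± 5.58 CPM, log2 fold change -3.44), each with an adjusted p of 1.63e-12 or less. Chondrocytes were level with fibroblasts (55.6 ± 21.6 against 66.6 ± 42.2 CPM in the same libraries, log2 fold change -0.04 ± 0.244). Tenocytes and osteoblasts, both higher than fibroblasts in *Bmp2*, stood on opposite sides of them in *Gdf10*.

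*Grem1*, which binds BMP2, BMP4 and BMP7, was found in osteoblasts at 29.05, 20.5 and 0 CPM in the libraries labelled rest, 15.75, 99.9 and 68.5 CPM at peak, 61.55, 22.45 and 122 CPM at resolving and 102, 26.1 and 37.95 CPM at resolved. Fibroblasts held 2.06 ± 1.69 CPM. Osteoblasts were higher in 11 of 12 libraries, with a log2 fold change of 4.39 ± 0.261 (adjusted p = 5.85e-23), and the spread between osteoblast libraries was wide. The filter was not independent of the osteoblasts for *Grem1*, and this p-value shares that limit. Tenocytes held 0 of 3708358 UMIs and chondrocytes 0 of 4021535, which puts them at least 2.37-fold and 2.57-fold below fibroblasts.

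*Chrdl1*, an antagonist known to bind BMP4, was higher in the cartilage and tendon cells. In chondrocytes the libraries labelled rest held 156 and 68.2 CPM, peak 89.3 and 168 CPM, resolving 156 and 137 CPM and resolved 328 and 115 CPM, all above the fibroblasts of the same library (log2 fold change 2.09 ± 0.158, adjusted p = 1.34e-20). Tenocytes held 50.4 CPM in the lowest library, 87.9 CPM in the median and 173 CPM in the highest, above fibroblasts (38.6 ± 10.5 CPM) in 12 of 12 libraries (log2 fold change 1.49 ± 0.146, adjusted p = 1.8e-14). It was lower in osteoblasts (17.6 ± 9.77 CPM, log2 fold change -1.29), perivascular cells (14.3 ± 11.6 CPM, log2 fold change -1.70), proliferating cells (13.6 ± 7.74 CPM, log2 fold change -1.53) and vascular endothelial cells (2.11 ± 2.00 CPM, log2 fold change -4.15). Muscle cells held 0 of 731036 UMIs, at least 9.46-fold below fibroblasts. *Grem1* and *Chrdl1* therefore had different cell types at the top of their order, and no cell type was called higher than fibroblasts in both.

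When the 12 types were put in order of mean level, neighbours in that order overlapped within 1 SD for each of the 11 steps of *Bmp2*, *Bmp4*, *Bmp5*, *Bmp6*, *Bmp7*, *Gdf5* and *Gdf10*, for 10 of 11 steps of *Grem1* and for 9 of 11 steps of *Chrdl1*. Over the 11 named types other than fibroblasts and the 10 fibroblast clusters (21 points that share libraries), the genes most like a member in pooled level were *Rora*, *Socs1* and *Ngef* for *Bmp2* (Pearson r = 0.837 to 0.783). They were *Dpm1*, *Trip10* and *Galnt15* for *Bmp4* (0.880 to 0.844) and *Ntrk2*, *Cntfr* and *Reck* for *Bmp5* (0.871 to 0.817). For *Bmp7* they were *Col9a2*, *Fdps* and *Hmgcs1* (0.819 to 0.7875), for *Gdf10* *Pfn2*, *Wnt5a* and *Rbp4* (0.782 to 0.774), for *Grem1* *Slc20a2* and *Lrrn1* (0.888 and 0.8845) and for *Chrdl1* *Snhg18*, *Fads1* and *Comp* (0.862 to 0.853). Between members the highest r was 0.685, between *Bmp5* and *Chrdl1*, and the lowest was -0.19, between *Bmp4* and *Bmp7*.

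Of 5 further lists of the pathway, the members of each list that passed the filter were counted in the same fits. Of all genes tested, 12.9% were called higher and 15.4% lower in osteoblasts, 8.08% and 11.6% in tenocytes, 21.8% and 25.8% in chondrocytes, 18.7% and 21.3% in perivascular cells and 27.2% and 26.1% in vascular endothelial cells. The lists are short, and no test set them against other genes. In osteoblasts 2 of 6 tested other ligands were higher and 3 lower, with *Bmp8a* (log2 fold change 3.10) and *Bmp3* (2.88) up and *Mstn*, which encodes myostatin, down (-5.99). Of 12 tested other antagonists 2 were higher and 6 lower, with *Nog*, which encodes noggin, up by a log2 fold change of 3.77 and *Fstl1* (-2.18) down. Receptors and co-receptors gave 2 higher and 3 lower of 9, with the decoy receptor *Bambi* up (1.88) and *Rgma* (-2.36) and *Tgfbr3* (-2.01) down. Of the 8 Smads and regulators 0 were higher and 1 lower, *Smurf1*. Of 6 BMP target genes 5 were higher and 0 lower, among them *Hey1* (2.23), *Id2* (2.15) and *Atoh8* (1.35), and the median log2 fold change of the targets was 1.22 beside -0.00164 over all genes.

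In tenocytes 3 of 6 other ligands were higher and 1 lower, with *Bmp3* (2.96) and *Mstn* (2.69) up and *Bmp8a* (-4.09) down. Other antagonists gave 4 higher and 3 lower of 12, with *Bmper* (-1.99) and *Fst* (-1.92) down. Receptors gave 2 higher and 2 lower of 9, Smads and regulators 1 higher and 2 lower of 8, and targets 2 higher (*Id2* and *Id3*) and 0 lower of 6. In chondrocytes the lists gave 1 higher and 1 lower of 6 other ligands, 1 and 6 of 12 other antagonists, 1 and 5 of 9 receptors, 2 and 3 of 8 Smads and regulators, and 3 and 2 of 6 targets, with *Bmp8a* (3.86) and *Id1* (1.68) up and *Msx1* (-3.19) down. Perivascular cells had 5 higher and 0 lower of 6 targets, with *Hey1* (2.66) and *Atoh8* (2.04) up, and 2 higher and 6 lower of 12 other antagonists.

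In vascular endothelial cells, where 53.3% of all genes were called, the 9 tested receptors and co-receptors were called in both directions, 4 higher and 5 lower, with endoglin (*Eng*, log2 fold change 4.45) up and *Bmpr1a* (-2.91) and *Rgma* (-3.18) down. Of the 6 targets 5 were higher and 1 lower, led by *Hey1* (4.75) and *Id1* (4.04), and of 12 other antagonists 1 was higher and 10 were lower. In the other classes the 6 tested targets gave 2 higher and 1 lower in lymphatic endothelial cells, 3 and 1 in muscle cells, 0 and 3 in proliferating cells, 0 and 2 in Schwann cells, 0 and 3 in immune cells and 0 and 1 in erythroid cells.

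**Figure D2:**
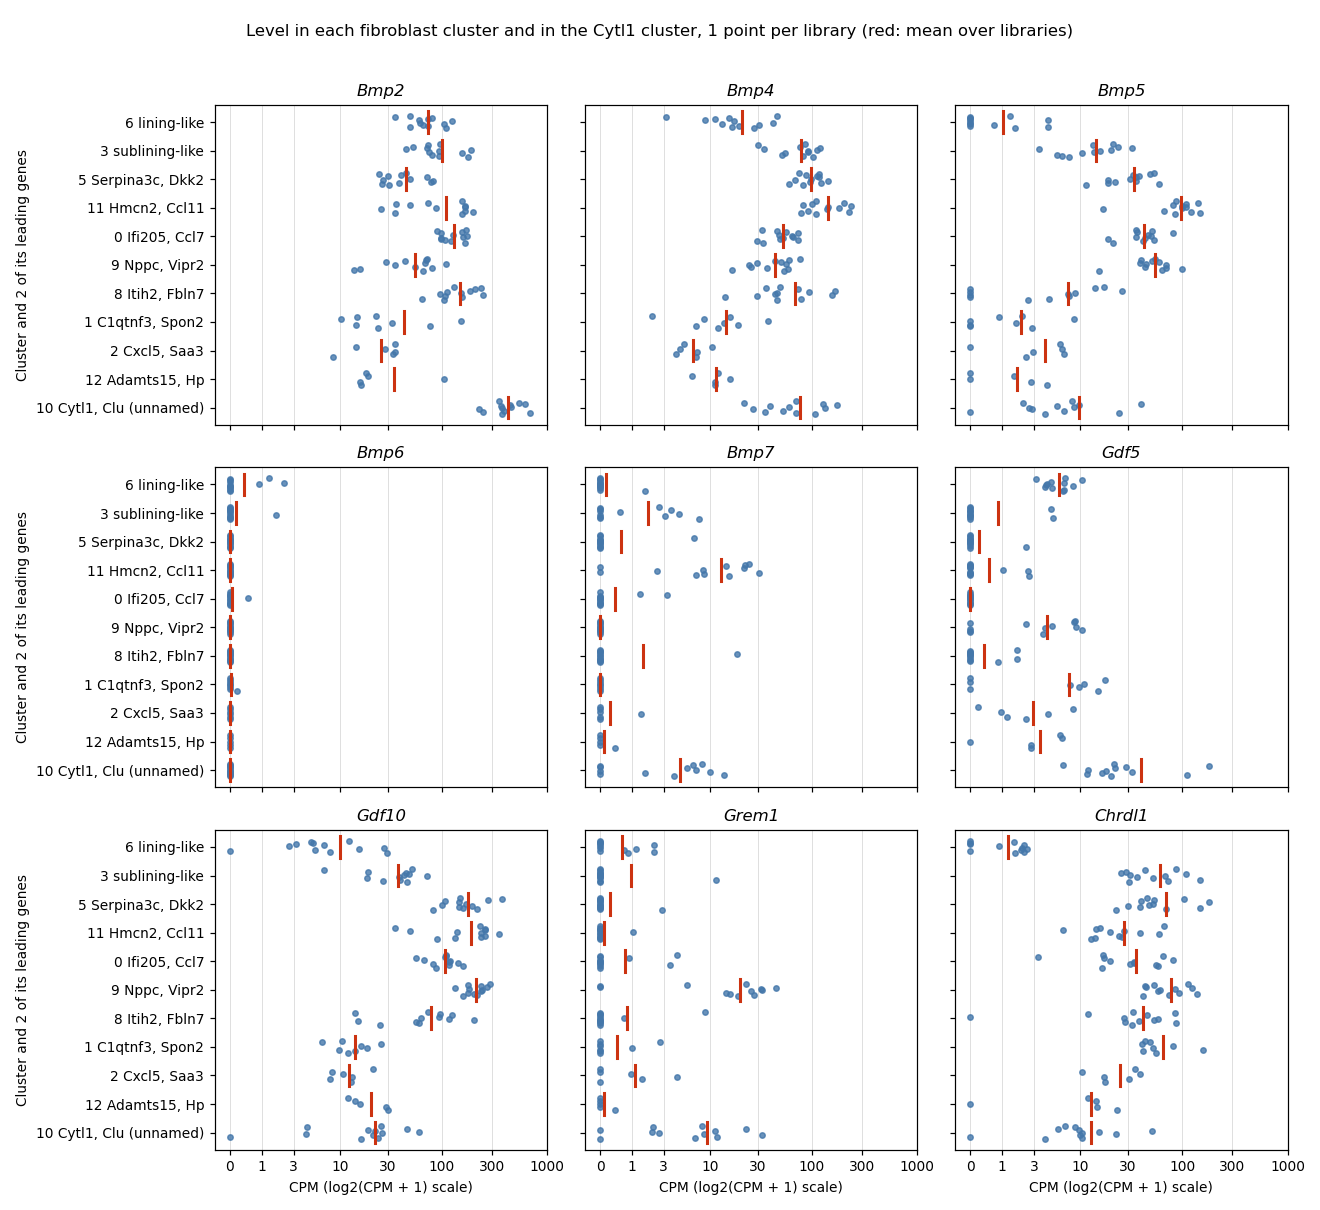
Level of each member (x axis, CPM on a log2(CPM + 1) scale) in the 10 fibroblast clusters and the unnamed *Cytl1* cluster (y axis, with 2 leading genes each). Each point is a library with at least 10 cells of the cluster and the red bar is the mean. *Bmp2* was 423 ± 137 CPM in the *Cytl1* cluster, and *Gdf10* was 209 ± 46.3 CPM in the cluster led by *Nppc* and *Vipr2*.

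Fibroblast clusters are described by their levels with no test. *Bmp4* and *Bmp5* were both highest in the cluster led by *Hmcn2*, *Ccl11* and *Smoc2* (861 cells), at 141 ± 55.7 CPM and 97.2 ± 34.5 CPM. The same cluster held *Gdf10* at 189 ± 97.4 CPM and, alone among the fibroblast clusters, *Bmp7* above 2 CPM (13 ± 10.2 CPM). The cluster led by *Nppc*, *Vipr2* and *Egfl6* (965 cells) had the most *Gdf10* (209 ± 46.3 CPM), the most *Chrdl1* (77.8 ± 32.9 CPM) and the most *Grem1* (20.1 ± 13.7 CPM), and *Bmp5* at 54.5 ± 21.1 CPM. It passed 3 tenocyte markers. The cluster led by *Serpina3c* and *Dkk2* combined *Gdf10* (176 ± 80.7 CPM) with *Bmp4* (98.0 ± 24.5 CPM) and had little *Bmp2* (45.5 ± 20.9 CPM).

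*Bmp2* within fibroblasts was highest in the clusters led by *Itih2* and *Fbln7* (150 ± 58.2 CPM) and by *Ifi205* and *Ccl7* (131 ± 32.6 CPM). It was low in 3 clusters that few libraries supplied, those led by *C1qtnf3* and *Spon2* (43.7 ± 48.8 CPM, 8 libraries), by *Cxcl5* and *Saa3* (25.9 ± 11.7 CPM, 6 libraries) and by *Adamts15* and *Hp* (34.8 ± 39.0 CPM, 5 libraries). The same 3 clusters held *Bmp4* at 14.6, 6.499 and 11.4 CPM on average, *Bmp5* at 2.02, 4.08 and 1.75 CPM, and *Gdf10* at 14.2, 12.4 and 20.4 CPM. *Chrdl1* was not low in all of them, at 65.7 ± 40.0, 25.1 ± 11.5 and 12.9 ± 8.40 CPM.

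The unnamed *Cytl1* cluster, present in 12 of 12 libraries, had the highest *Bmp2* of any cluster with 227 CPM in the lowest library, 383 CPM in the median and 684 CPM in the highest. Its lowest library lay above the highest tenocyte library (218.5 CPM) and the highest library of all fibroblasts (152 CPM), but below the highest libraries of osteoblasts (235.7 CPM), of perivascular cells (276.6 CPM) and of the fibroblast cluster led by *Itih2* and *Fbln7* (248 CPM). *Gdf5* was also highest there, at 21.95, 6.57 and 179 CPM in the libraries labelled rest, 29.0, 22.6 and 12.1 CPM at peak, 18.3, 32.7 and 16.6 CPM at resolving and 11.7, 111 and 20.3 CPM at resolved. The libraries rest 3 and resolved 2, of the same run, stood above the others. Its leading genes further include *Cilp*, *Chad* and *Spp1*, and it passed 1 marker each of the fibroblast, osteoblast, chondrocyte and tenocyte lists, so no class was given to it.

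The lining of the joint and the tissue beneath it were compared as the 1141 cells of the cluster with all 5 lining markers (*Prg4*, *Clic5*, *Tspan15*, *Htra4* and *Itga6*) and the 1486 cells of the cluster with all 5 sublining markers (*Cd34*, *Thy1*, *Pi16*, *Dpp4* and *Col14a1*). All 5 members that passed the filter were lower in the lining-like cells than in this sublining-like cluster. The other fibroblast clusters were left out. Some of them held less *Bmp2* than the lining-like cells and some held more. In this comparison 26.4% of the 8546 genes tested were called, and 14% were called lower.

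*Chrdl1* was farthest apart. Lining-like cells held 0 CPM in the lowest library, 1.62 CPM in the median and 2.41 CPM in the highest, and sublining-like cells 25.4, 47.8 and 148 CPM. The groups did not overlap, and the log2 fold change was -5.10 ± 0.231 (adjusted p = 4.53e-15, lower in 12 of 12 libraries). *Bmp5* was at 1.05 ± 1.69 against 14.6 ± 8.73 CPM (log2 fold change -3.51 ± 0.453, adjusted p = 7.46e-07, lower in 11 of 12). *Bmp4* was at 21.0 ± 13.2 against 77.6 ± 28.9 CPM (log2 fold change -1.86 ± 0.19, adjusted p = 1.59e-08) and *Gdf10* at 10.0 ± 9.55 against 38.0 ± 17.6 CPM (log2 fold change -1.85 ± 0.241, adjusted p = 9.25e-07), both lower in 12 of 12. *Bmp2* was at 74.0 ± 26.9 against 100 ± 47.6 CPM, lower in 8 of 12 libraries, and its log2 fold change of -0.51 ± 0.134 (adjusted p = 0.00381) sat at the fold limit, so that 11 alternative settings left it uncalled.

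*Gdf5* went the other way and could not be tested because of its low counts. It was 3.20 CPM in the lowest lining-like library, 5.72 CPM in the median and 10.3 CPM in the highest, while sublining-like cells were at 0 in 10 of 12 libraries and at 4.80 and 5.10 CPM in rest 3 and resolved 2. It was higher in the lining-like cells in 12 of 12 libraries. The sublining-like cells held 5 UMIs of it in 1486 cells. *Bmp6*, *Bmp7* and *Grem1* also failed the filter. Lining-like cells had a median of 7523 UMIs and sublining-like cells 5504, and markers of other cell types differed as well. The perivascular markers summed to 143 to 430 CPM in the first and 10.1 to 53.8 CPM in the second, with 5 of 7 higher, and the osteoblast markers to 216 to 1092 CPM and 37.0 to 153 CPM, also with 5 of 7 higher. The Schwann markers summed to 56.5 to 293 CPM and 11.4 to 44.1 CPM, with 2 of 6 higher, 2 lower and 2 at 0 in all libraries. The part of depth and of these markers in the differences was not tested.

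**Figure D3:**
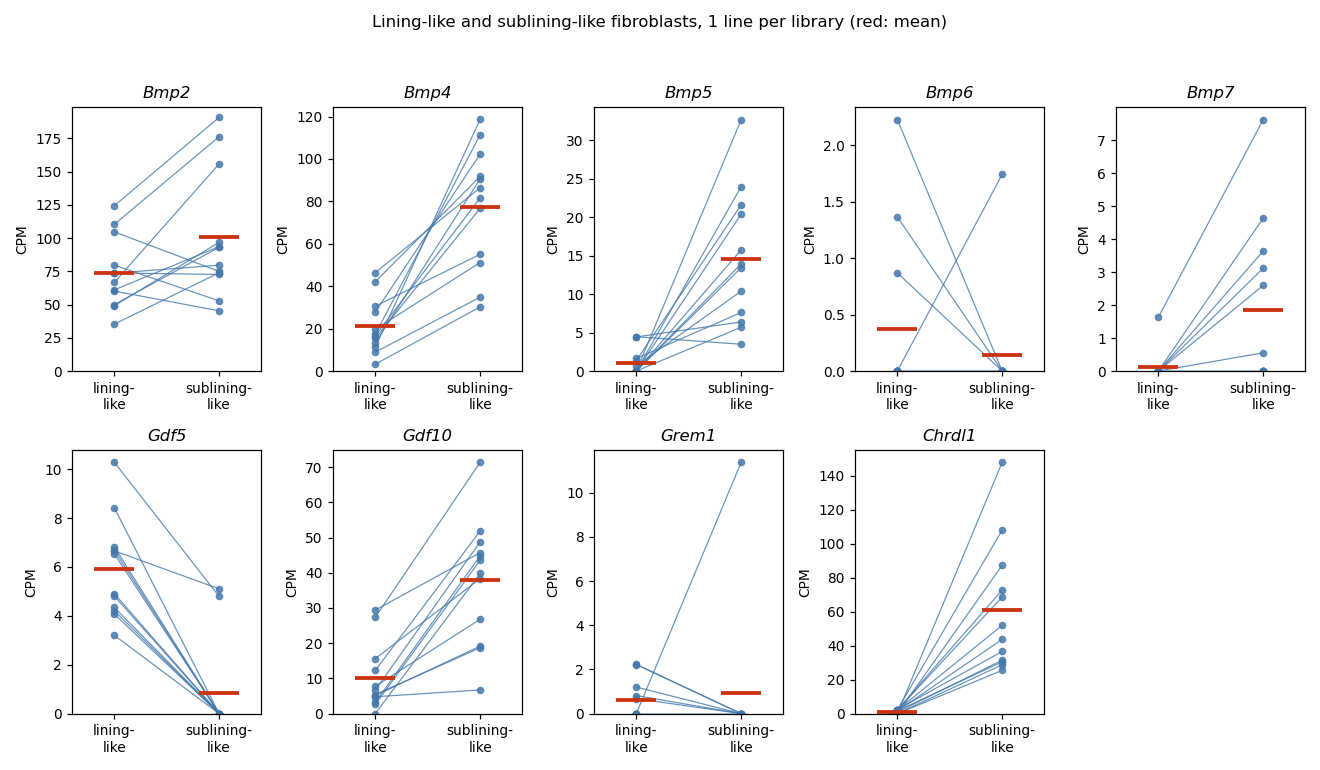
Level of each member (y axis, CPM) in lining-like and sublining-like fibroblasts, with 1 line per library and the mean in red. *Chrdl1*, *Bmp4* and *Gdf10* were lower in the lining-like cells in 12 of 12 libraries, and *Gdf5* was higher in 12 of 12.

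The other genes of the pathway split in the same comparison. Of 4 tested other ligands 2 were higher in the lining-like cells, *Inhba* (log2 fold change 2.32) and *Gdf15* (2.12), and 1 was lower, *Bmp3* (-2.39). Other antagonists gave 2 higher and 3 lower of 9, with *Fst*, which encodes follistatin, down (-3.20), *Fstl1* down (-1.99) and *Fstl3* up (1.26). Receptors gave 1 higher, *Acvr1c* (4.09), and 5 lower of 12, with *Acvrl1* at -1.56 and *Bambi* at -0.87. Smads and regulators gave 0 higher and 1 lower of 8 (*Smurf2*, -0.77). Targets gave 1 higher and 2 lower of 4, with *Id2* at 0.82, *Id1* at -0.74 and *Msx1* at -1.01.

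Fibroblasts with and without a UMI of *Hk2*, which encodes the glycolytic enzyme hexokinase 2, were compared because the study made this contrast. There were 5895 *Hk2*-positive and 6818 *Hk2*-negative fibroblasts, and the positive share ran from 31.5% to 61.3% over libraries. Positive cells had a median of 6222 UMIs and negative cells 5355. Of 8 tested members 3 were called, beside 7.27% of all 11449 genes tested, with *Bmp2* higher (4.24% of genes were called higher) and *Gdf5* and *Grem1* lower (3.02% of genes).

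*Bmp2* was at 92.4 ± 47.5 CPM in the positive cells and 54.6 ± 26.6 CPM in the negative cells, and was higher in 12 of 12 libraries (log2 fold change 0.865 ± 0.097, adjusted p = 1.04e-06). It was called in each of 25 alternative settings, with log2 fold changes between 0.70 and 0.98. That range includes negative cells matched to the positive ones in UMIs (0.93, adjusted p = 6.71e-09) and in cluster (0.70, adjusted p = 7.32e-08). *Grem1* was at 1.04 ± 0.898 against 2.90 ± 3.02 CPM, lower in 9 of 12 libraries (log2 fold change -1.08 ± 0.364, adjusted p = 0.0305). Of the 159 *Grem1* UMIs in fibroblasts, 110 lay in 46 cells of the cluster led by *Nppc* and *Vipr2*. With negative cells matched in UMIs or in cluster *Grem1* did not pass the filter and was not tested. The call rests on few libraries. It was lost without rest replicate 1, in which its negative cells held the most (log2 fold change -0.75, adjusted p = 0.126), without resolving replicate 1 (adjusted p = 0.0568), without peak replicate 2 (adjusted p = 0.0609) and with DESeq2 (adjusted p = 0.0533). Under the broad fibroblast definition the log2 fold change was 0.00191 (adjusted p = 0.997). *Gdf5* was at 2.29 ± 2.22 against 4.11 ± 4.40 CPM, lower in 10 of 12 libraries (log2 fold change -0.60 ± 0.218, adjusted p = 0.0444), and 15 of 22 alternative settings left it uncalled.

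*Bmp4* and *Gdf10* were lower in the positive cells in 12 of 12 libraries with adjusted p of 0.0113 and 0.0126, but their log2 fold changes of -0.38 and -0.33 stayed under the fold limit. With cells matched in cluster they were -0.22 (adjusted p = 0.0681) and -0.10 (adjusted p = 0.419). *Bmp5* (-0.20 ± 0.126), *Bmp7* (0.44 ± 0.507) and *Chrdl1* (-0.13 ± 0.0818) were not called. The tenocyte markers were lower in the positive cells in 6 of 6, with sums of 319 to 2353 CPM against 871 to 4794 CPM. The osteoblast markers were lower in 6 of 7 (49.7 to 469 against 79.2 to 525 CPM), which stands beside the *Grem1* call because osteoblasts held far more *Grem1* than fibroblasts. The muscle markers (9.75 to 17.3 against 9.75 to 35.0 CPM) and the vascular endothelial markers (8.93 to 24.2 against 12.6 to 31.9 CPM) were lower in 7 of 7, and the erythroid markers were higher in 6 of 6 (169 to 1583 against 195 to 748 CPM). The part of these lists in the differences was not tested. Leaving out the 3 fibroblast clusters with 2 or 3 tenocyte markers gave a log2 fold change of 0.83 for *Bmp2* (adjusted p = 2.17e-06) and one of -0.57 for *Gdf10*, which was then called (adjusted p = 0.0001541). None of the 8 tested members showed an interaction of *Hk2* status and stage label (edgeR, lowest adjusted p = 1), and 0 of 11449 genes did (288 at an unadjusted p under 0.05, edgeR).

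**Figure D4:**
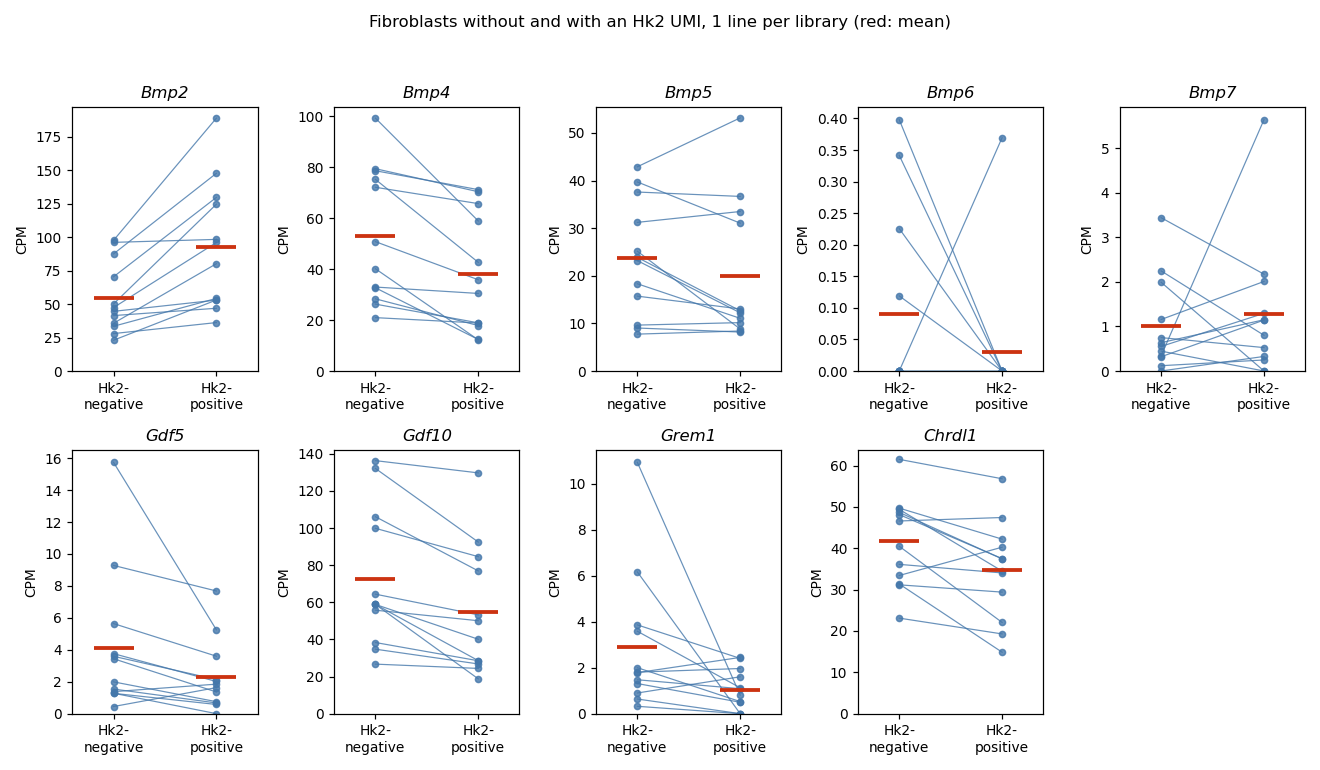
Level of each member (y axis, CPM) in *Hk2*-negative and *Hk2*-positive fibroblasts, with 1 line per library and the mean in red. *Bmp2* was higher in the positive cells in 12 of 12 libraries and *Bmp4* and *Gdf10* were lower in 12 of 12.

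Of the other pathway genes, *Inhba*, which encodes an activin subunit, was higher in the positive cells (log2 fold change 0.91) and *Bmp3* lower (-0.66), 1 each way of 6 other ligands. Other antagonists gave *Fst* higher (0.75) and *Nog* lower (-0.68) of 13. The receptors gave 0 of 13. Both Smads and regulators called, *Skil* (0.84) and the inhibitory *Smad7* (0.70), were higher, of 9 tested. Both targets called, *Id1* (-0.57) and *Id2* (-0.61), were lower, of 7 tested.

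The stage labels were compared in fibroblasts, each later label with rest. *Bmp2* was at 58.9 ± 34.2 CPM at rest, 87.4 ± 57.0 CPM at peak, 76.2 ± 21.9 CPM at resolving and 68.9 ± 50.6 CPM at resolved (n = 3 libraries each). *Bmp4* was at 38.3 ± 26.8, 59.2 ± 35.4, 49.8 ± 23.2 and 32.4 ± 18.9 CPM, and *Gdf10* at 68.5 ± 56.3, 69.4 ± 38.4, 72.7 ± 39.0 and 42.1 ± 13.1 CPM. The values of a later label overlapped those of rest in all 21 tests of 7 members. No member was called, and neither was any of the 11829 genes tested (0%). The study reported genes that differed from rest at each later time point in *Hk2*-positive fibroblasts, with single cells tested by a Wilcoxon method. Here all fibroblasts were summed per library, and whether the labels match the libraries was not tested. The lowest p among members was 0.058, for *Gdf5* at peak (log2 fold change -2.03 ± 0.963, adjusted p = 1, edgeR), which was at 5.39 ± 6.13 CPM at rest and 1.21 ± 0.423 CPM at peak. At an unadjusted p under 0.05 there were 85 genes at peak, 75 at resolving and 56 at resolved, and DESeq2 called 0 genes.

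With the run as a block, 0 of 24 tests of members were called. *Gdf5* then had log2 fold changes of -0.97 ± 0.43 at peak, -0.95 ± 0.37 at resolving and -0.48 ± 0.348 at resolved. *Bmp7*, which passed the filter only in this fit, was at -1.73 ± 0.594, -1.41 ± 0.62 and -1.06 ± 0.631 at peak, resolving and resolved (lowest adjusted p = 0.9997, edgeR). In vascular endothelial cells, osteoblasts, tenocytes, chondrocytes and perivascular cells, 0 of 51 tests of members were called, beside 0% of genes in each class. The standard errors of the 21 fibroblast tests ran up to 0.963 on the log2 scale, so that small changes were not detectable with this spread.

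**Figure D5:**
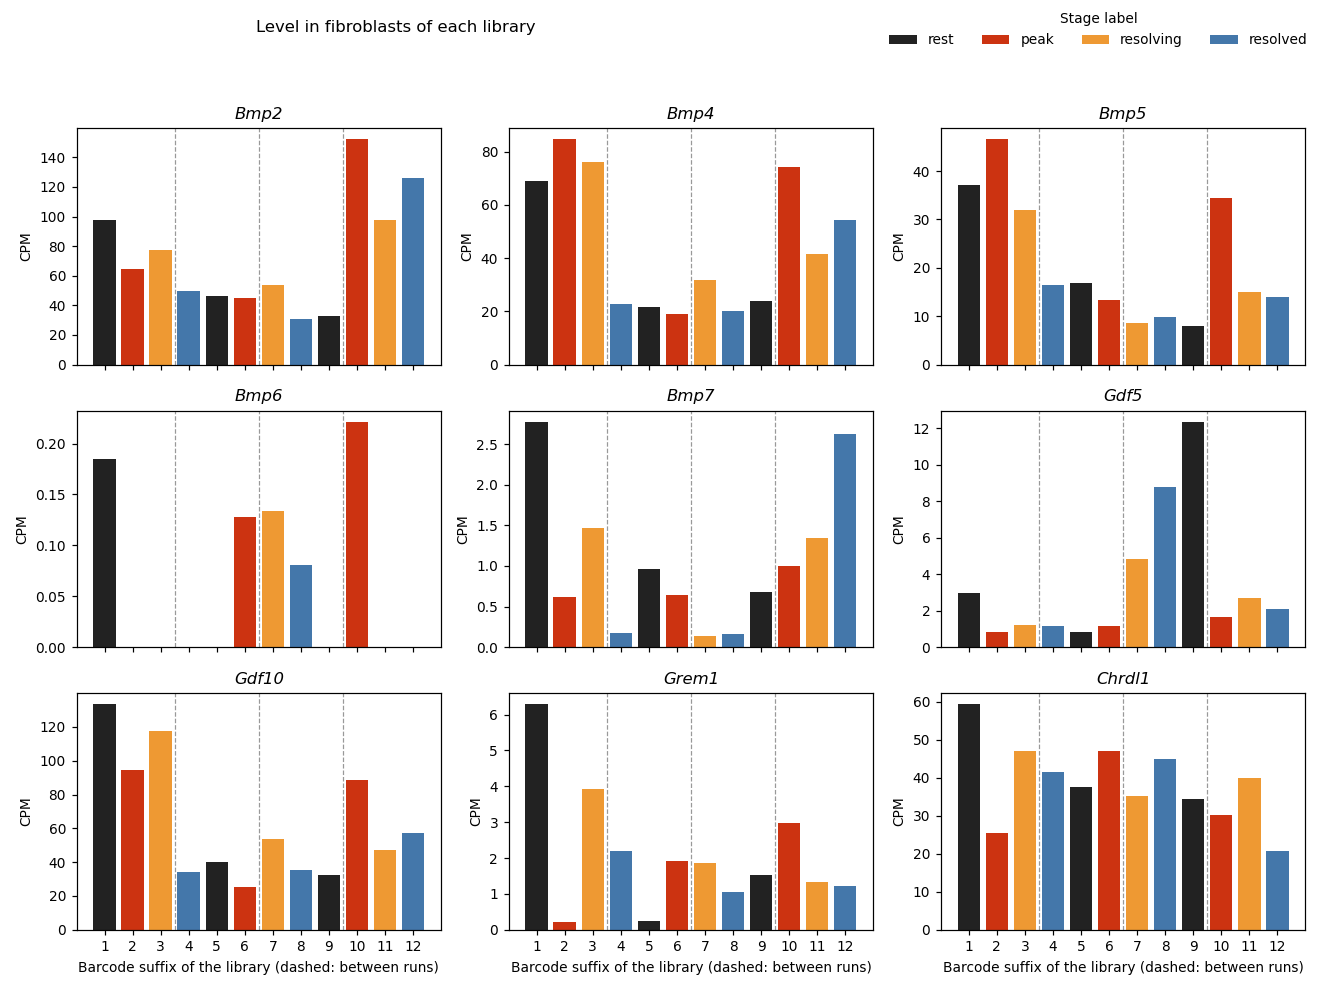
Level of each member in fibroblasts (y axis, CPM) by the barcode suffix of the library (x axis), coloured by stage label, with dashed lines between the 4 runs of 3 consecutive suffixes. *Bmp2*, *Bmp4* and *Gdf10* were lower in suffixes 4 to 9 than in the other 6 libraries except that the ranges of *Gdf10* met, at 25.1 to 53.4 CPM and 47.1 to 133 CPM.

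Across the 4 runs the fibroblasts differed in 59.6% of the 11829 genes tested, and in 5 of 7 members tested (adjusted p under 0.05, F test over the runs in edgeR). *Bmp4* was 69.1, 84.7 and 76.1 CPM in run 1 (labelled rest, peak and resolving), 22.8, 21.8 and 18.9 CPM in run 2 (resolved, rest and peak), 31.9, 20.3 and 23.9 CPM in run 3 (resolving, resolved and rest) and 74.1, 41.4 and 54.2 CPM in run 4 (peak, resolving and resolved). Runs 1 and 4 lay above runs 2 and 3 without overlap, by 2.87 times on average (adjusted p = 1.72e-05 over the 4 runs). Each adjusted p here is of the F test over all 4 runs, and the split into these pairs was not tested. The runs were taken up because these same fibroblast sums grouped by them, so the p-values are not independent of that choice. *Bmp2* was split between the same pairs of runs (2.38 times, adjusted p = 4.46e-05), with 64.8 to 152 CPM against 30.6 to 53.8 CPM. *Bmp5* (2.45 times, adjusted p = 0.000297) and *Gdf10* (2.45 times, adjusted p = 0.000179) had the same direction with overlapping ranges. *Gdf5* was highest in run 3, at 4.81 to 12.4 CPM against 0.821 to 2.96 CPM in the other 9 libraries (adjusted p = 6.85e-05). *Grem1* (adjusted p = 0.351) and *Chrdl1* (adjusted p = 0.304) were not called, although without peak replicate 1 all 8 members then tested were. *Chrdl1* was at 20.6 to 59.3 CPM in runs 1 and 4 and 34.5 to 47.2 CPM in runs 2 and 3.

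Other values moved with the runs. The 7 fibroblast markers summed to 46091 to 70535 CPM in runs 1 and 4 and to 17398 to 25773 CPM in runs 2 and 3, with 5 of 7 higher. The lining markers (8993 to 28605 against 3398 to 6911 CPM, 5 of 5 higher), the osteoblast markers (268 to 499 against 75.1 to 197 CPM, 6 of 7 higher) and the Schwann markers (55.1 to 86.8 against 19.6 to 38.5 CPM, 4 of 6 higher) were higher in runs 1 and 4 too. Lower there were the chondrocyte markers (67.0 to 187 against 204 to 348 CPM, 5 of 7 lower), the tenocyte markers (673 to 1965 against 1120 to 3927 CPM, 6 of 6), the proliferation markers (2.85 to 8.32 against 14.4 to 53.5 CPM, 6 of 6), the immune markers (2.46 to 7.37 against 6.08 to 15.6 CPM, 7 of 7) and the erythroid markers (185 to 595 against 361 to 1267 CPM, 6 of 6). The sublining markers summed to 1641 to 2730 against 878 to 1364 CPM, with 3 of 5 higher. The part of these lists in the differences between runs was not tested. The cluster led by *Cxcl5* and *Saa3* made up 28.6% of the cells of run 2, and those led by *C1qtnf3* and *Adamts15* 26.8% and 12.9% of run 3, while each was under 1% of runs 1 and 4. Without these 3 clusters (4076 cells) *Bmp2* was still called across runs (adjusted p = 0.014), whereas *Bmp4* (0.299), *Bmp5* (0.125), *Gdf10* (0.0665) and *Gdf5* (0.424) were not. Inside single clusters the ratio of runs 1 and 4 to runs 2 and 3 varied. For *Bmp4* it was 1.04 in the cluster led by *Ifi205*, 0.825 in that led by *Serpina3c* and 0.732 in that led by *Hmcn2*, but 2.28 in the lining-like and 1.55 in the sublining-like cells. For *Bmp2* it was 1.87 in the sublining-like cells, 1.20 in the lining-like cells and 0.885 in the *Cytl1* cluster.

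In the pathway lists the runs differed in 5 of 6 other ligands, 11 of 12 other antagonists, 11 of 14 receptors, 8 of 10 Smads and regulators and 6 of 7 targets tested, among them *Mstn*, *Inhba*, *Nbl1*, *Twsg1*, *Neo1*, *Smad6*, *Id3* and *Id2*. These shares stand beside the 59.6% of all genes.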

How the data were processed

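Live CD45- cells of digested hind limb joints were profiled with the 10x Genomics 3′ version 2 kit in 12 libraries. The authors aligned the reads with Cell Ranger to mm10 and deposited UMI counts per gene and cell, with no normalization stated. The deposited cells of all 12 libraries share a median of 5358 UMIs. No step that sets a common depth is described in the sources used here. Whether strand was used is not given in the sources used here.

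Cells with over 500 and under 5000 genes, over 500 UMIs and fewer UMIs than the study's limit for each library (20000 to 40000) were kept. Counts scaled to 10000 per cell, 2000 variable genes, 30 components, 20 neighbours and Leiden clustering (resolution 1, seed 1) followed, in scanpy 1.11.5 on Python 3.11.15, with igraph 0.11.9 and leidenalg 0.10.2. The members, the pathway lists and *Hk2* were left out of the clustering genes. Clusters were named from the markers of 14 classes, by a rule whose cut-offs were adjusted once the clusters had been inspected. Doublets were kept: Scrublet marked 56 cells (0.279%), too few to rely on, and an alternative removed the 1204 cells with the highest scores.

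UMIs were summed per library and class from at least 10 cells and tested with edgeR 4.0.16 (R 4.3.3, TMM, filterByExpr, quasi-likelihood F test, Benjamini-Hochberg over all genes tested). A call required a log2 fold change beyond 0.5 in size at an adjusted p under 0.05, or the adjusted p alone for runs and the interaction. SE is the log2 fold change divided by the root of F. Deviations of same-numbered libraries from their label means correlated at -0.513 to 0.662. Same-numbered libraries of the same run all correlated positively (0.422 to 0.662), and those of different runs ranged from -0.513 to 0.58. Replicate number was thus partly tied to run, and it served as a block only in an alternative. The scripts were tested on simulated counts. Alternatives were other size factors, no filter, DESeq2 1.42.0, each library left out, limits on mitochondrial UMIs and doublets, another resolution, other blocks, other fibroblast definitions and matched *Hk2*-negative cells. Leaving out fibroblast clusters absent from some libraries or with tenocyte markers was added after seeing the data. Positions are from GENCODE M21 (GRCm38), which holds 27645 of the 27998 gene identifiers.

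The members and lists were chosen with earlier results of these data known. Named genes are the 9 members, at most 3 genes of each pathway list per comparison with the largest log2 fold change past the threshold, and for each member the 3 genes most like it among those with at least 20 CPM in a cell type or cluster. Some genes that this rule names are not reported here.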

Additional observations from a re-analysis of the deposited data

Results flagged for a closer look

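In groups of 6 to 10 libraries of one cell type, 8 values stood far from the others of their group by Dixon's test, of 23 groups tested. In 4 of the 8 a single UMI in 1 library stood against 0 in all others, which passes the test by construction and says nothing of that library. Of other groups chance flags about 1 in 20. In chondrocytes *Bmp7* was 149.2 CPM in peak replicate 2, on 8 UMIs in 10 cells, with 56.95 CPM in the next library. *Chrdl1* was 327.8 CPM in resolved replicate 1, on 48 UMIs in 18 cells, with 167.9 CPM in the next. *Bmp4* was 1.05 CPM in peak replicate 1, on 1 UMI, and 0 in the other 7 libraries.

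In muscle cells *Gdf10* was 16.22 CPM and *Grem1* 8.111 CPM in rest replicate 1, and *Bmp5* was 7.757 CPM in peak replicate 3. In lymphatic endothelial cells *Chrdl1* was 14.86 CPM in rest replicate 1. In proliferating cells *Grem1* was 1.3 CPM in resolved replicate 1. The muscle value of *Gdf10* had 6.569 CPM and the proliferating value of *Grem1* 0.4103 CPM as the next library, and the other 3 were 1 UMI each in the single library above 0.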

How the results depend on the processing

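The count of members called across cell types was 48 and stayed between 41 and 51 under 21 alternatives. Between lining-like and sublining-like cells it was 5, and 3 without the library block. For *Hk2* status it was 3, and 1 with DESeq2, cells matched in UMIs or in cluster, resolution 0.5, the broad fibroblast definition or no library block. *Grem1* did not pass the filter with matched cells, at resolution 0.5 or without the library block, so it was not tested there. *Gdf5* was not tested without the library block. Leaving out 1 library each gave 1 to 3 for *Hk2* status (1 without peak replicate 2, resolving replicate 1 or rest replicate 1), 4 to 5 for lining, 44 to 50 for cell types and 0 for stage labels and the interaction. Across runs it was 5, ranged from 5 to 8 with 1 library left out (8 of 8 tested without peak replicate 1), and was 1 without the clusters absent from some libraries. For stage labels in other cell types it was 0, and 2 with no filter. With replicate number as a block it was 0 in fibroblasts and 0 in other cell types, so the block changed no call of a member.

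Single values reversed 3 times: *Chrdl1* in osteoblasts (0.0617) and *Grem1* in tenocytes (2.19) at resolution 0.5, and *Grem1* by *Hk2* status (0.00191) under the broad definition, and the cause was not tested. Of the other single values 2284 kept direction and side of the threshold, 89 lost it and 26 gained it. Genes called for *Hk2* status went from 832 to 464 (matched in cluster), 1262 (from 2 UMIs) and 460 (no library block), for lining from 2258 to 1430 (no library block), for runs from 7052 to 2274 (without those clusters) and for stage in other cell types from 0 to 345 (no filter), 3 (replicate block) and 1 (DESeq2).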
